A study of Mus musculus with 12 samples.

Results

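Gas5 and the Snhg genes are long non-coding RNA genes that carry small nucleolar RNAs (snoRNAs) in their introns. The 10 genes asked for were Gas5, Snhg1, Snhg3, Snhg4, Snhg5, Snhg6, Snhg8, Snhg12, Snhg15 and Snhg18, taken by gene name from the deposited lncRNA table. Rows for 9 of the 10 were found, and Snhg3 enters only through its promoter. The 9 genes hold 108 transcripts of the 42870 in that table, and 9 of its 19825 gene names.

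RNA came from MTEC1, a mouse line of WT genotype that the labels call a medullary thymic epithelial line, kept in DMEM with fetal bovine serum. One group of 3 libraries was the control, and the other group of 3 had received PAMK at 50 µg/ml for 12 h. The name PAMK usually stands for a polysaccharide of the Atractylodes macrocephala rhizome. The series design gives 6 h of culture for the controls, so treatment and time cannot be told apart. Total RNA was sequenced as read pairs after removal of ribosomal RNA. Whether the 3 libraries in each group were made from different cultures is not said, so p-values speak only of the spread among these samples, and that spread may be technical. Levels are given as FPKM (fragments per kilobase of transcript, scaled to the library's total), a unit inferred for the deposited values, and a gene's level is the sum of its transcripts.

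In a snoRNA host gene the intron is the part that is kept: after splicing, exonucleases trim the intron down to the snoRNA, which guides ribose methylation (box C/D class, names in Snord) or pseudouridylation (box H/ACA class, names in Snora) of ribosomal and spliceosomal RNA. The spliced exons carry only short reading frames, are translated for a short while, and are for many host genes removed by nonsense-mediated decay. Many of these genes start within a run of pyrimidines, the 5′ terminal oligopyrimidine (TOP) start that they share with ribosomal protein genes and that ties their translation to mTOR signalling.

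RefSeq places 27 snoRNA genes inside the 9 host genes on mouse build GRCm38.p6. Gas5 and Snhg1 hold 8 each, among them Snord47 in Gas5 and Snord22 in Snhg1. Snhg12 holds 4, namely Snora16a, Snora44, Snora61 and Snord99. Snhg4 holds Snora74a, Snhg6 Snord87, Snhg8 Snora24 and Snhg18 Snord123. The values below are those of the host transcripts, and no snoRNA level is given here.

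Because these genes are known for their start sites, the 30 bases on each side of the RefSeq start are shown for 7 of them, 5′ to 3′ on the gene's own strand, from the RefSeq promoter table of build GRCm38.p6. Capitals mark the longest run of C and T within 20 bases of the start. The windows are chr1:161035136-161035196 on the plus strand for Gas5, chr19:8723457-8723517 (plus) for Snhg1, chr9:88522867-88522927 (minus) for Snhg5, chr3:123508306-123508366 (minus) for Snhg8, chr4:132308648-132308708 (plus) for Snhg12, chr11:6528730-6528790 (minus) for Snhg15 and chr15:32244632-32244692 (minus) for Snhg18.
Gas5: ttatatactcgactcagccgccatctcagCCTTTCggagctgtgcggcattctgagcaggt
Snhg12: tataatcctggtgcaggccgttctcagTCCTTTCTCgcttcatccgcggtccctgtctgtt
Snhg8: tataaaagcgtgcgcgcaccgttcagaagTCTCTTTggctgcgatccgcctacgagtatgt
Snhg5: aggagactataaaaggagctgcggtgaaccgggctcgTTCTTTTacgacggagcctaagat
Snhg1: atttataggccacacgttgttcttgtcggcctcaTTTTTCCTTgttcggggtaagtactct
Snhg18: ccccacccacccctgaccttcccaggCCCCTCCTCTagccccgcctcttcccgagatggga
Snhg15: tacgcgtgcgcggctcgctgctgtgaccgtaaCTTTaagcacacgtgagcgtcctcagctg

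In the windows shown for Gas5, Snhg12, Snhg8 and Snhg18 the run spans the annotated start itself. The table holds another Gas5 start, at chr1:161034571-161034631 (plus), whose longest run is 3 bases and ends before the start. In Snhg5 and Snhg1 it begins 7 and 4 bases past the RefSeq start. The Snhg5 start used further below, at 88522888 in the deposited positions, lies inside the run if the build is the same. Snhg15 has only 4 pyrimidines in a row. Counted here were 9 promoters for 8 of the listed genes, and their median run was 7 bases, against 5 over all 32851 promoters. The 8 genes are the 7 shown and Snhg3, which has no row in the lncRNA table. The longest run of Snhg3 is 5 bases and begins 2 bases past its RefSeq start. Promoters on chromosome 18, where Snhg4 lies, were left out of the 9 but not of the 32851. A run of at least 8 bases was found in 3 of the 9 (33.3%; Snhg12, Snhg1 and Snhg18), against 16.45% of all promoters. The letters CTTTC or CTTTT were searched within 20 bases of the start on both strands; they share their first 4 letters, so both cannot begin at the same base, and every match on the gene strand lies inside a pyrimidine run. They were found on the gene strand in Gas5, Snhg12 and Snhg5 (33.3% of the 9, against 9.42% of all promoters), and on either strand in the same 3 (33.3%, against 17.7%). A match of letters is a description of these windows.

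The deposited lncRNA values of a library summed to between 79925 and 88531 FPKM, and 38.6% to 40.1% of transcripts stood at the placeholder for nothing measured, which was set to 0. No fragment counts were recovered, so the depth is unknown. All 9 epithelial markers were below 1 FPKM in mean, with a 0 listed in every library for Krt5, Krt14, Epcam and Aire; the 9 summed to 0.209 to 0.280 FPKM in control and 0.151 to 0.335 in PAMK. By contrast, 4 of 6 mesenchymal markers were at 1 FPKM or more in mean. The 6 summed to 436.4 to 566.6 FPKM in control and 505.4 to 707.9 in PAMK. S100a4 stood at 297.7 to 391.3 FPKM and Vim at 92.5 to 253.0 over the 6 libraries. Pdgfrb, at 0.242 to 0.368 FPKM, and Thy1, at 0 to 0.0335, were low, and Col1a2 was listed at 0 in PAMK 1 and PAMK 3. The defining markers of the labelled cell type were thus listed at or near 0, while the mesenchymal ones were mixed. A listed 0 is not proof of absence in these tables, since genes that every cell uses are also listed at 0 in some libraries (Rps2 in control 3 and PAMK 3, with 122.2 FPKM in control 1; Hspa8 in PAMK 3). Of 4 haematopoietic markers only Cd68 reached 1 FPKM; the 4 summed to 0.410 to 0.910 FPKM in control and 1.38 to 1.64 in PAMK, with Cd3e listed at 0. The 3 endothelial markers summed to at most 0.0597 FPKM, with Kdr listed at 0. The part of any of these in the results was not tested. In bulk RNA, fewer cells of a type and less RNA per cell cannot be told apart.

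The host genes stood high among the 19825 gene names of the lncRNA table, of which only 7537 averaged at least 0.5 FPKM. Gas5 and Snhg1 were above 99.6% of all lncRNA gene names by mean level, and the lowest of the 9, Snhg12, was above 85.2%. Together the 9 genes came to 207.7 ± 9.25 FPKM in control and 207.4 ± 13.4 FPKM in PAMK (SD, n = 3 each). The groups overlapped in this sum.

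**Figure D1:**
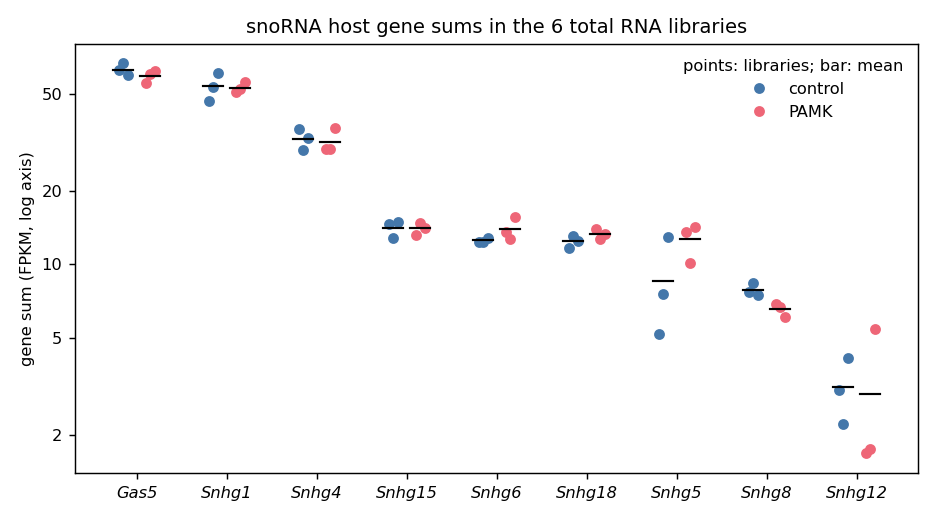
Gene sums of the 9 host genes in FPKM (log axis), 1 point per library and a bar at each group's mean, ordered by mean level. The groups overlap in 8 genes; in Snhg8 the PAMK libraries, at 6.10 to 6.89 FPKM, all lie under the control libraries, at 7.52 to 8.38.

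The levels formed steps. Gas5 was above Snhg1 in 5 of 6 libraries, but their ranges overlapped. Snhg1 was 1.65 times Snhg4 and Snhg4 2.29 times Snhg15, each with no overlap over the 6 libraries. Snhg15, Snhg6, Snhg18, Snhg5 and Snhg8 formed a run in which each overlapped its neighbours, although the range of Snhg8 lay wholly under those of Snhg15, Snhg6 and Snhg18. Snhg8 was 2.37 times Snhg12, with no overlap.

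None of the 9 host genes passed the test for a difference between PAMK and control. In limma on log2(FPKM + 1), with p-values adjusted over all 7537 lncRNA gene sums tested, 0 of the 9 had an adjusted p under 0.05 and 0 had an unadjusted p under 0.05 (1, Snhg5, without control 3). Over all gene sums, 2 (0.0265%) passed the adjusted and 467 (6.20%) the unadjusted threshold. Without control 3 the unadjusted count over all was 459. The median log2 fold change of the 9 was -0.01, against 0.03 over all gene sums, with 3 above 0 and 6 below (44.9% of all were below 0). The median residual SD was 0.18 for the 9 and 0.24 for all.

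**Figure D2:**
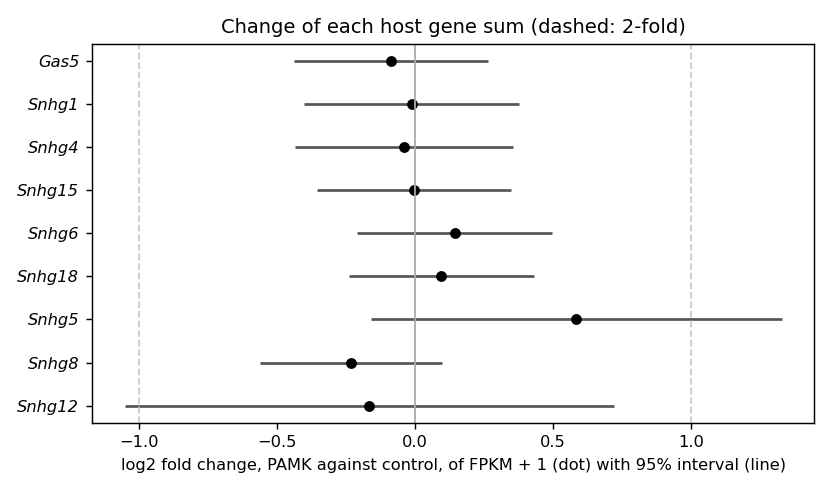
Log2 fold change of each host gene sum, PAMK against control, on the log2(FPKM + 1) scale, with its 95% interval from the limma fit; dashed lines mark 2-fold. All 9 intervals include 0, and those of Snhg5 and Snhg12 alone reach past a 2-fold line.

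Gas5 (chromosome 1, plus strand), found first as a gene whose RNA builds up in growth-arrested cells, stood at 62.3, 66.5 and 59.4 FPKM in control 1 to 3. In PAMK 1 to 3 it stood at 55.2, 60.04 and 62.02 FPKM. The highest library was a control and the lowest a PAMK library, with the groups overlapping between them. Its log2 fold change was -0.09 ± 0.15 (SE; adjusted p = 0.986 in limma), with a 95% interval from -0.44 to 0.27.

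Snhg1 (chromosome 19, plus strand), the other gene with 8 snoRNAs in its introns, stood at 46.8, 53.4 and 60.7 FPKM in control and at 50.7, 52.3 and 55.8 FPKM in PAMK. The PAMK libraries all lay inside the control range. Its log2 fold change was -0.01 ± 0.16 (SE), with a 95% interval from -0.40 to 0.38.

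Snhg4 (chromosome 18, plus strand), host of an H/ACA snoRNA, stood at 35.8, 29.5 and 32.8 FPKM in control and at 29.7, 29.7 and 36.1 FPKM in PAMK. Its log2 fold change was -0.04 ± 0.17 (SE), with a 95% interval from -0.43 to 0.36. A further 5 transcripts named Snhg4 stand in the deposited mRNA table; with them added the log2 fold change was -0.05.

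Snhg15, Snhg6 and Snhg18 lay close together. Snhg15 (chromosome 11, minus strand) was at 14.1 ± 1.15 FPKM in control and 14.1 ± 0.800 in PAMK (SD, n = 3 each). Snhg18 (chromosome 15, minus strand), a gene with 1 listed transcript, was at 12.4 ± 0.709 and 13.3 ± 0.591 FPKM. Their 95% intervals ran from -0.36 to 0.35 and from -0.24 to 0.43 on the log2 scale. Snhg6 (chromosome 1, minus strand) stood at 12.4, 12.4 and 12.9 FPKM in control and at 13.6, 12.8 and 15.6 FPKM in PAMK. Its controls were the tightest of any host gene, with a coefficient of variation of 2.24%, and PAMK 2 lay among them. The log2 fold change of Snhg6 was 0.14 ± 0.15 (SE; adjusted p = 0.924 in limma), with a 95% interval from -0.21 to 0.50.

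Snhg8 (chromosome 3, minus strand), host of the H/ACA snoRNA Snora24, was the 1 gene whose groups did not overlap. It stood at 7.71, 8.38 and 7.52 FPKM in control and at 6.89, 6.69 and 6.10 FPKM in PAMK. All 3 PAMK libraries were lower than all 3 controls, a pattern that 4.54% of all 7537 lncRNA gene sums showed (7.63% were higher in this way, and 12.2% in either direction). Its log2 fold change of -0.23 ± 0.14 (SE) did not pass (unadjusted p = 0.141, adjusted p = 0.895 in limma), with a 95% interval from -0.56 to 0.10.

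Snhg5 (chromosome 9) had the largest fold change of the 9 and a wide spread. It stood at 5.17, 7.56 and 12.9 FPKM in control and at 13.6, 10.1 and 14.2 FPKM in PAMK. Control 3 lay among the PAMK libraries, and the control coefficient of variation was 46.4%, against 17.4% in PAMK. The log2 fold change was 0.58 ± 0.31 (SE; unadjusted p = 0.106, adjusted p = 0.868 in limma), with a 95% interval from -0.16 to 1.33. Control 3 and control 1 moved it most: without control 3 it was 0.90 ± 0.24 (unadjusted p = 0.0104, adjusted p = 0.708 in limma), and without control 1 it was 0.31 ± 0.27 (adjusted p = 0.710).

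Snhg12 (chromosome 4, plus strand), host of 3 H/ACA snoRNAs and 1 C/D snoRNA, was the lowest of the 9 and, in PAMK, the most variable. It stood at 3.07, 2.21 and 4.12 FPKM in control and at 1.68, 1.75 and 5.43 FPKM in PAMK. PAMK 3 was the highest of the 6 libraries while PAMK 1 and 2 were the lowest, and the PAMK coefficient of variation was 72.6%. Its log2 fold change was -0.16 ± 0.37 (SE), with a 95% interval from -1.05 to 0.72; without PAMK 3 it was -0.58.

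Host genes are annotated with many isoforms, and their transcripts were compared singly. Of the 108 transcripts, 100 had Ensembl names and 8 were assembled from the reads. A value of 0 in all 6 libraries was listed for 19, and 54 were above 0 in all 6. The 64 with a mean of at least 0.1 FPKM were tested on log2(FPKM + 0.1), with p-values adjusted over all 23670 lncRNA transcripts that met this filter; 14 of the 64 were at 0 in some libraries. In limma 0 of the 64 passed, while 9 (0.0380%) of all transcripts did. An unadjusted p under 0.05 was found for 4 of the 64, against 5.76% of all transcripts (1364). Without control 2 the count was 2 (1268 of all transcripts), and without control 3 it was also 2 (1284 of all). It was 5 without control 1 (1907 of all) and 6 without PAMK 3 (1219 of all). Of the 64, 30 had a fold change below 0, as had 45.1% of all. The groups did not overlap for 4 transcripts that were higher with PAMK (7.06% of all) and 4 that were lower (4.23% of all). The median residual SD was 0.58 for the 64 and 0.46 for all.

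All 4 transcripts with an unadjusted p under 0.05 belonged to Snhg5, 2 higher and 2 lower with PAMK (3.62% and 2.15% of all transcripts), and none passed the adjustment. ENSMUST00000239203 stood at 0.0973, 0.197 and 0.358 FPKM in control and at 1.24, 0.911 and 0.546 FPKM in PAMK. Every PAMK library was above every control (log2 fold change 1.68 ± 0.44 SE; unadjusted p = 0.00788, adjusted p = 0.768 in limma). ENSMUST00000239344 went the other way, at 0.823, 0.218 and 0.269 FPKM in control and at 0.00912, 0.0345 and 0.217 FPKM in PAMK (log2 fold change -1.51 ± 0.60 SE; adjusted p = 0.858 in limma). ENSMUST00000239219 was lower in the same way, at 0.180 to 0.245 FPKM in control and at most 0.172 FPKM in PAMK. All 3 are minor forms of the gene, near or under 1 FPKM.

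The 4th, ENSMUST00000239290, was listed at 0 in all 3 controls and at 4.26, 3.94 and 0 FPKM in PAMK 1 to 3. Its adjusted p was 0.858 in limma, and without PAMK 3, the PAMK library that listed it at 0, it was 0.0410. It shares its 3′ end, and its start to within 2 bases, with 2 other Snhg5 transcripts. ENSMUST00000239377 was at 0, 0 and 6.05 FPKM in control and at 3.26, 0 and 6.61 FPKM in PAMK. Both forms were thus present in PAMK 1, both were at 0 in control 1 and 2, and 1 of them was present in each of the other 3 libraries. ENSMUST00000239379, the leading transcript, was even, at 2.19 to 3.75 FPKM in control and 2.63 to 3.23 FPKM in PAMK. Summed, the 3 forms stood at 2.19, 3.75 and 8.74 FPKM in control and at 10.5, 7.17 and 9.24 FPKM in PAMK, and the groups overlapped through control 3. How the authors' processing divides reads among such forms was not tested, so their single values are uncertain. One further row named Snhg5, an assembled transcript, lies on the opposite strand and was at 2.02 ± 0.437 FPKM in control and 1.79 ± 0.653 in PAMK (SD, n = 3 each); no strand setting is known for these libraries, so its reads and those of Snhg5 may not be separable. Without that row the log2 fold change of Snhg5 was 0.76 ± 0.36 (SE; adjusted p = 0.828 in limma).

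**Figure D3:**
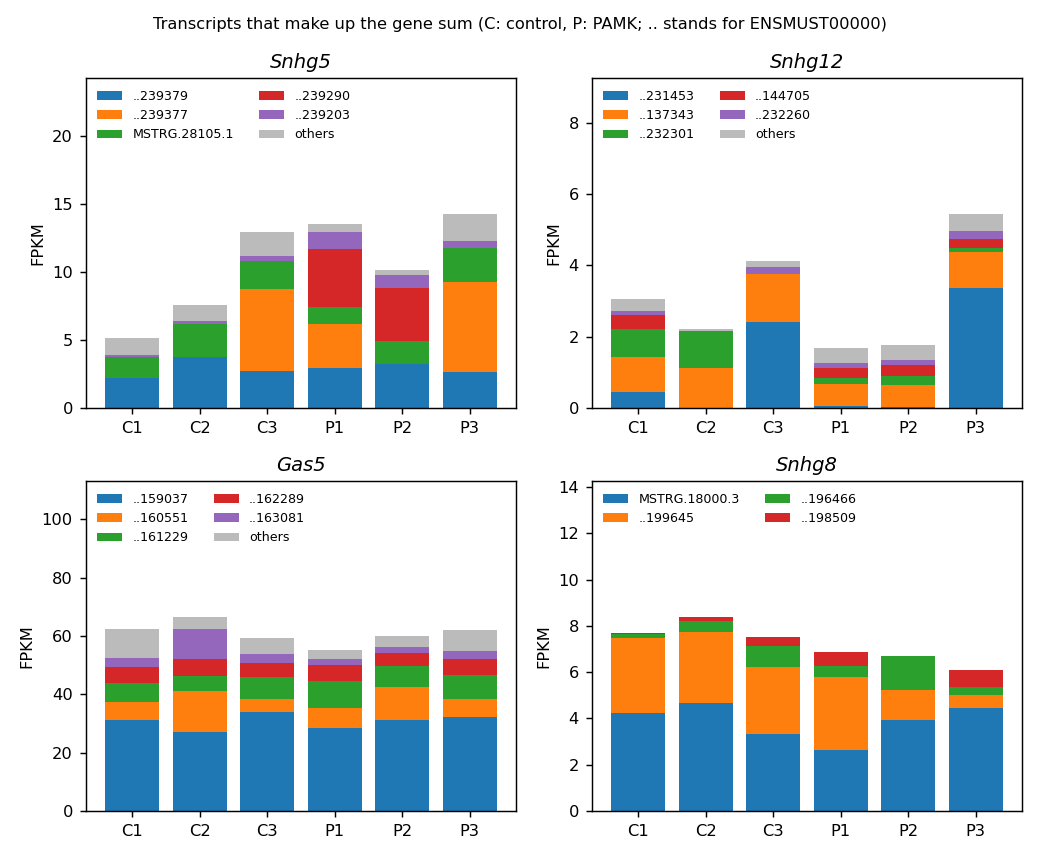
FPKM of the transcripts that make up 4 host genes, stacked in each of the 6 libraries (C: control, P: PAMK); the 5 highest forms are coloured and the others grey. In Snhg5 ENSMUST00000239377 and ENSMUST00000239290 are present in some libraries and at 0 in others, in Snhg12 ENSMUST00000231453 is high in control 3 and PAMK 3 alone, and in Gas5 and Snhg8 the total varies less than its parts.

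In Gas5 the leading transcript, ENSMUST00000159037, was even over the libraries, at 27.2 to 34.1 FPKM in control and 28.4 to 32.1 FPKM in PAMK. Other forms were not. ENSMUST00000160551 ranged from 4.19 to 13.8 FPKM in control, ENSMUST00000163081 was at 10.2 FPKM in control 2 and at 1.90 to 3.05 FPKM in the other 5 libraries, and ENSMUST00000159399 was at 6.50 FPKM in control 1, 4.13 FPKM in PAMK 3 and 0 elsewhere. ENSMUST00000163081 and ENSMUST00000160516 were lower in every PAMK library than in every control, with log2 fold changes of -0.95 ± 0.50 and -0.45 ± 0.21 (SE; adjusted p = 0.878 and 0.858 in limma).

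In Snhg8 the assembled form MSTRG.18000.3 stood at 4.23, 4.67 and 3.34 FPKM in control and at 2.63, 3.91 and 4.43 FPKM in PAMK. The second form, ENSMUST00000199645, which starts 3 bases away, stood at 3.25, 3.09 and 2.90 FPKM in control and at 3.14, 1.32 and 0.584 FPKM in PAMK. Over PAMK 1 to 3 one was high where the other was low. In Snhg6 the assembled form MSTRG.835.6 was even, at 8.40 to 10.3 FPKM, while ENSMUST00000182580 stood at 0.0145, 0.264 and 1.85 FPKM in control and at 4.61, 0.208 and 5.63 FPKM in PAMK. Counting annotated transcripts alone, the log2 fold change of Snhg6 was 0.55 ± 0.27 (SE; adjusted p = 0.793 in limma) rather than 0.14.

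The spread of a gene's sum was set against the spread its transcripts would give if they varied independently, from within-group variances in FPKM. For Gas5 the SD of the sum was 3.53 FPKM, against 6.73 FPKM. For Snhg6 the values were 1.07 and 2.57 FPKM, and for Snhg8 0.432 and 1.37 FPKM. The ratio of the 2 variances was below 1 in 7 of the 8 host genes with more than 1 transcript tested, all but Snhg15, and its median was 0.61. Over all 4908 lncRNA gene names with at least 2 tested transcripts the ratio was below 1 in 42.0%, with a median of 1.08. For Snhg12 the ratio was 0.95. The host genes and all names were not matched for their number of transcripts, and how reads are divided among overlapping forms was not tested. This is a description from 3 libraries a group.

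The share of the gene sum held by the leading transcript was compared with an exact permutation test (two-sided), which with 3 against 3 cannot go below 0.10. For Gas5 the share was 49.5% ± 8.20 in control and 51.8% ± 0.300 in PAMK (SD, n = 3 each; exact permutation p = 0.70). For Snhg6 it was 77.8% ± 3.71 and 66.7% ± 10.2 (exact permutation p = 0.20). For Snhg5 it was 20.8% to 49.6% in control and 18.4% to 31.9% in PAMK (exact permutation p = 0.30). Over the 8 genes with more than 1 transcript the p-values were 0.20 or higher, and 0.60 or higher after Benjamini-Hochberg adjustment over the 8.

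The listed start positions of the transcripts divided the genes into 2 kinds. They are the ends of annotated or assembled transcripts, not starts measured in these libraries. In Gas5 the leading form lies inside the span of longer ones. How reads are divided among overlapping forms was not tested, so the shares below are uncertain. The main start of a gene was taken as the most 5′ window of 100 bases to each side that held at least 3 transcript starts (for Snhg18, the start of its single transcript); positions are those deposited, and no source used here names their build. In Gas5, transcripts from the main start made up 20.6% ± 2.69 of the sum in control and 23.7% ± 3.10 in PAMK (SD, n = 3 each), and transcripts that start downstream 79.3% ± 2.79 and 76.1% ± 3.04. The leading form of Gas5 starts 2552 bases past the main start, at position 161037718, and ends at 161038537, within 2 bases of the gene's usual 3′ end at 161038539. Full forms from the main start were led by ENSMUST00000161229, at 5.36 to 7.85 FPKM in control and 7.25 to 9.22 FPKM in PAMK.

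Snhg1 and Snhg15 were of the same kind. In Snhg1 transcripts from the main start made up 31.6% ± 6.70 of the sum in control and 22.7% ± 7.37 in PAMK, and its leading form starts 653 bases downstream. In Snhg15 they made up 36.2% ± 1.85 and 36.3% ± 2.54, and its leading form starts 1007 bases downstream. The groups overlapped in all 3 genes.

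In the other genes most of the sum came from transcripts listed at the main start. The share was 82.7% ± 2.44 in control and 78.7% ± 2.52 in PAMK for Snhg4, 86.4% ± 11.2 and 92.3% ± 6.13 for Snhg6, and 97.7% ± 1.13 and 94.7% ± 2.25 for Snhg12. For Snhg8 and Snhg18 it was 100% in each library. For Snhg5 it was 73.8% ± 9.03 and 85.4% ± 4.78, with nearly all of the rest in the row on the opposite strand. The class depends on the window in Snhg5: with 50 bases in place of 100, the share from the main start over the 6 libraries was 5.88%, and in Snhg4 it was 55.1%.

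**Figure D4:**
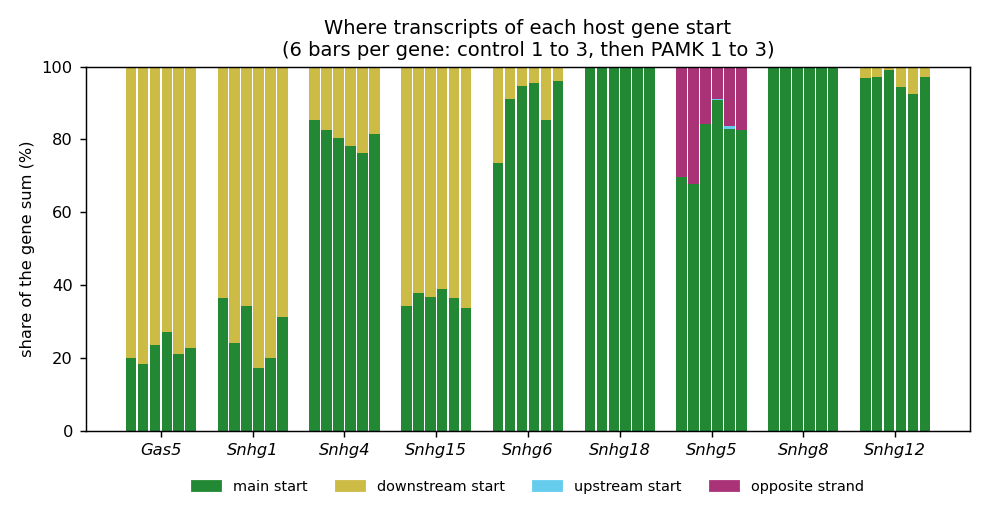
Share of each host gene's sum, in percent, from transcripts listed as beginning at the main start, downstream of it, upstream of it or on the opposite strand. Each gene has 6 bars (control 1 to 3, then PAMK 1 to 3). In Gas5, Snhg1 and Snhg15 the downstream class is the larger in each of the 6 libraries, and the main start is the larger class in the other 6 genes.

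The mRNA genes whose levels followed Gas5 most closely over the 6 libraries were Nup35, a nuclear pore gene, Gm5617 and Pafah1b2, a subunit of a platelet-activating factor acetylhydrolase. Their root mean square differences from Gas5, after centring log2(FPKM + 1), were 0.0146, 0.0215 and 0.0293, against a median of 0.214 over 4504 genes with a mean of at least 5 FPKM. Gas5 itself varied by only 0.0799 about its mean on this scale, so the genes nearest to it are ones that also varied little.

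Other lncRNA host genes were taken from a list of 14, of which 10 were tested; the 10 include Mir17hg (log2 fold change -0.16), which is known as a host of miRNAs rather than snoRNAs. In limma 0 of the 10 passed, against 0.0265% of all gene sums, and 0 had an unadjusted p under 0.05, against 6.20% of all. Of the 10, 4 were above 0 and 6 below (44.9% of all were below 0). Their median log2 fold change was -0.06, against 0.03 over all gene sums. Snhg20 had the smallest p: it stood at 14.2, 15.4 and 3.64 FPKM in control and at 6.29, 3.85 and 3.28 FPKM in PAMK, with control 3 among the PAMK libraries (log2 fold change -0.98 ± 0.50 SE; adjusted p = 0.846 in limma). Without control 3 its log2 fold change was -1.57 ± 0.27 (SE; unadjusted p = 0.0013, adjusted p = 0.420 in limma). The count with an unadjusted p under 0.05 was then 1, as it was with the replicate block (Snhg20) and with mRNA rows of the same names added (Zfas1). Over all gene sums the count was 459 of 7537 without control 3 and 401 of 7537 with the replicate block. With the mRNA rows added it was 765 of 8745. Zfas1, host of C/D snoRNAs antisense to Znfx1, was at 21.2 ± 1.66 FPKM in control and 24.8 ± 0.794 in PAMK (SD, n = 3 each; adjusted p = 0.909 in limma). Epb41l4aos was at 14.9 to 24.6 FPKM in control and 11.5 to 21.6 in PAMK, and Snhg17 at 13.8 ± 2.15 and 16.0 ± 0.959 FPKM.

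The proteins that build and carry snoRNAs were tested in the mRNA table, where 7 of 9781 gene sums (0.0716%) passed the adjusted threshold. Of 20 listed names of snoRNP and assembly genes, 19 were tested and 0 passed in limma. The name without a row, Nhp2l1, is another name of Snu13, which was tested. An unadjusted p under 0.05 was found for 8, with 7 higher and 1 lower, against 10.0% of all mRNA gene sums (7.30% higher and 2.71% lower). The median log2 fold change was 0.18, against 0.06 over all, with 15 above 0 and 4 below (39.5% of all were below 0). The split of unadjusted calls depends on scaling: with library medians made equal the list had 2 higher and 2 lower, and all genes 343 higher and 738 lower in place of 714 and 265; with quantile normalization the list had 5 and 1, and all genes 425 and 516. With 1 library left out the count of 8 became 3 to 6, and the count over all genes became 746 to 958 in place of 979. For the list it was 3 without PAMK 2, 4 without control 1, and 5 without control 2 or without PAMK 1.

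The smallest p in that list was for Dkc1, the pseudouridine synthase dyskerin of H/ACA particles and itself a coding snoRNA host. It stood at 17.6, 15.7 and 17.1 FPKM in control and at 23.6, 25.5 and 25.8 FPKM in PAMK. Every PAMK library was above every control, as in 14.1% of all mRNA gene sums (log2 fold change 0.55 ± 0.07 SE), but the adjusted p was 0.160 in limma. Snu13, a protein of C/D particles, stood at 58.3, 58.3 and 44.0 FPKM in control and at 78.0, 73.1 and 69.0 FPKM in PAMK (adjusted p = 0.377 in limma). Pih1d1, of the R2TP assembly complex, was at 13.7 ± 0.0180 FPKM in control and 16.3 ± 0.509 in PAMK (SD, n = 3 each; adjusted p = 0.305 in limma). Naf1, an H/ACA assembly factor, was at 28.6 ± 0.987 and 25.2 ± 0.939 FPKM (adjusted p = 0.412 in limma).

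Nonsense-mediated decay genes, whose products remove many spliced host RNAs, showed 0 adjusted calls among 18 tested in limma. An unadjusted p under 0.05 was found for 1 of the 18, against 10.0% of all mRNA gene sums. This was Magoh of the exon junction complex, at 62.4 ± 3.73 FPKM in control and 68.7 ± 0.665 in PAMK (SD, n = 3 each; adjusted p = 0.498 in limma). There were 0 such genes with equal library medians, quantile normalization, the replicate block or no intensity trend, and without PAMK 1. The count was 3 without control 1 (958 over all genes) and 2 without control 3 (900 over all genes). The median log2 fold change was 0.10, with 10 above 0 and 8 below (39.5% of all were below 0). Dcp2, of the decapping complex, and Casc3, of the exon junction complex, had adjusted p-values of 0.586 and 0.599 in limma.

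Genes that control TOP translation gave 0 adjusted calls among 17 tested in limma, and 4 with an unadjusted p under 0.05, 3 higher and 1 lower, against 10.0% of all mRNA gene sums (7.30% higher and 2.71% lower). With equal library medians the list had 3 and 3, and all genes 343 higher and 738 lower. Eif4ebp1, the translation repressor that mTOR phosphorylates, stood at 25.3, 26.8 and 26.6 FPKM in control and at 33.6, 35.03 and 29.4 FPKM in PAMK (adjusted p = 0.358 in limma). Akt1s1, an inhibitory partner of mTOR, was at 0.935 ± 0.644 and 5.70 ± 3.38 FPKM (SD, n = 3 each; adjusted p = 0.373 in limma). Rps6, a ribosomal protein and target of S6 kinase, was at 23.6 ± 14.9 and 65.3 ± 13.7 FPKM (adjusted p = 0.373 in limma). Cnbp, a nucleic acid binding protein encoded by a TOP mRNA, stood at 192.2, 213.4 and 207.5 FPKM in control and at 178.2, 178.4 and 188.1 FPKM in PAMK (adjusted p = 0.433 in limma). Without PAMK 3, Tial1 alone passed (log2 fold change -1.69 ± 0.11 SE; adjusted p = 0.0479 in limma); with all libraries it was at 6.31 to 6.83 FPKM in control and at 1.26, 1.46 and 9.30 FPKM in PAMK.

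Coding genes that host snoRNAs gave 0 adjusted calls among 33 tested in limma, and 5 with an unadjusted p under 0.05, 4 higher and 1 lower (15.2% of the list, against 10.0% of all mRNA gene sums, with 7.30% higher and 2.71% lower). With equal library medians the list had 2 and 4, beside 343 higher and 738 lower over all genes. Besides Dkc1, these included Tpt1, at 383.6 ± 9.24 FPKM in control and 428.1 ± 6.93 in PAMK, and Rps12, at 326.8 ± 10.7 and 387.1 ± 16.3 FPKM (SD, n = 3 each; adjusted p = 0.305 and 0.280 in limma). Rpl39 was lower, at 134.5 ± 9.39 and 114.7 ± 5.02 FPKM (adjusted p = 0.392 in limma). Ribosomal protein genes have near-identical copies in the genome, so their values are uncertain.

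**Figure D5:**
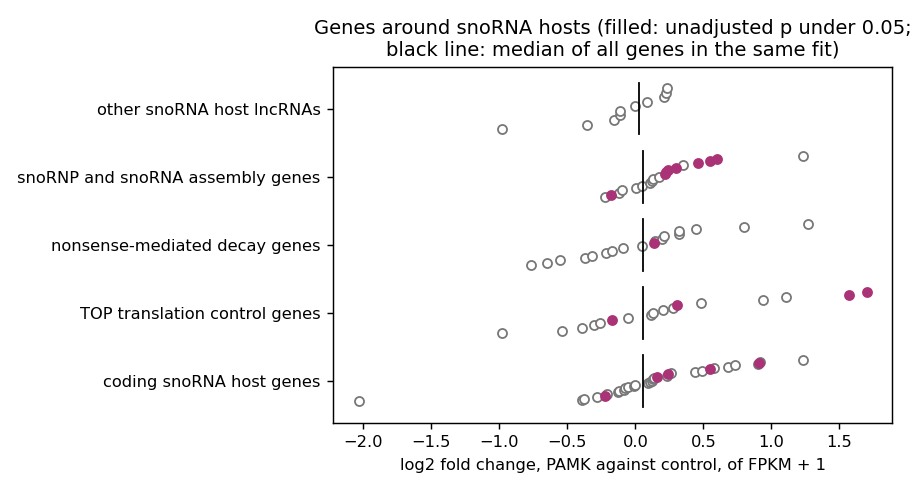
Log2 fold change, PAMK against control, of the tested genes of 5 lists related to snoRNA hosts, 1 point per gene; filled points have an unadjusted p under 0.05 in limma and black lines mark the median of all genes in the same fit. No point passed the adjusted threshold, and of the snoRNP and assembly genes 7 filled points lie above 0 and 1 below.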

How the data were processed

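Total RNA libraries of 3 control and 3 PAMK samples were used; the small RNA libraries were not used here. Tools listed by the submitters' processing notes are HISAT2, StringTie, cutadapt, FastQC and edgeR, without versions. The build, the annotation and the strandedness are not named in any source used here. Per the file headers, the deposited values are normalized counts. They were taken as FPKM made by the authors, from the layout and from columns that do not share a total, so depth is unknown and no count test was run. The placeholder 0.0001 was set to 0 and transcripts were summed by gene name.

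Gene sums averaging 0.5 FPKM or more were tested on log2(FPKM + 1) and transcripts averaging 0.1 FPKM or more on log2(FPKM + 0.1), with limma 3.58.1 in R 4.3.3 (intensity trend, two-sided, Benjamini-Hochberg at 0.05 over each whole table). Fold changes on these scales understate the change of low genes. The steps were tested on simulated data. Of 14671 lncRNA gene names also in RefSeq (GRCm38.p6), 14612 lay on the RefSeq gene they are named for, all 9 host genes included. The genes named were the 10 listed; their leading transcripts, those averaging 1 FPKM or more in either group and those with an unadjusted p under 0.05; up to 4 genes of each other list by smallest p and any past the threshold; and the 3 mRNA genes most like the highest host gene. Of these transcripts, those described were the ones whose values differ between libraries or lead their gene. Some genes that this rule or the lists hold are not reported here. The genes and lists were chosen with earlier results of these data known. The start windows and the Snhg5 sum without its opposite-strand row were chosen after seeing the data.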

Additional observations from a re-analysis of the deposited data

How the results depend on the processing

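No host gene passed the adjusted threshold in any of 14 settings (other pseudocount, no filter, equal medians, quantile normalization, replicate block, no trend, annotated transcripts only, mRNA rows added, each library left out), and the smallest adjusted p in limma was 0.578, for Snhg8. Gas5 (-0.19 to -0.04), Snhg8 (-0.35 to -0.19), Snhg18 (0.05 to 0.13), Snhg6 (0.07 to 0.55) and Snhg5 (0.31 to 0.90) kept their direction. Values near 0 changed sign when 1 library was left out: Snhg1 ranged from -0.10 to 0.080, Snhg4 from -0.13 to 0.026, Snhg15 from -0.070 to 0.034 and Snhg12 from -0.58 to 0.052 (log2). With annotated transcripts only, Snhg15 stood at 0.035, and another leading transcript, because the usual one is assembled, changed its share by 34.2 percentage points in Snhg6 and -29.8 in Snhg8 (exact permutation p = 0.30 and 0.20). Calls among host transcripts and among TOP control genes ranged from 0 to 1 over the left-out libraries, with 1 in each without PAMK 3. With a 50-base window, added after seeing the data, the share from the main start was 55.1% in Snhg4, 5.88% in Snhg5, 91.0% in Snhg8 and 91.4% in Snhg12. Samples of the same number did not deviate together (correlations of -0.05, -0.01 and -0.06 over lncRNA gene sums). Whether they share a culture or a batch is not said, and these correlations cannot settle it. With the replicate block an unadjusted p under 0.05 in limma was found for 0 host genes, beside 401 of all 7537 lncRNA gene sums. It was found for 3 host transcripts, beside 1175 of all 23670 lncRNA transcripts. In that fit 0 host genes and 0 host transcripts passed, and Snhg5 had an adjusted p of 0.925 in limma. Calls past the adjusted threshold went from 2 to 1 over lncRNA gene sums, 9 to 0 over lncRNA transcripts and 7 to 0 over mRNA gene sums. With 1 library left out these calls ranged from 1 to 7, 2 to 17 and 4 to 19, and with a pseudocount of 1 the lncRNA transcripts had 3; the cause was not tested. Depth is unknown, so how far counting error limits the low forms cannot be given.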

Other observations

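Among the lncRNA transcripts, 2 rows carry the name of a snoRNA, Snora43, rather than of a host gene. They are assembled transcripts on chromosome 2, and RefSeq (GRCm38.p6) places Snora43 inside Snhg7, a name with 0 rows in the table. The longer form was at 5.23 to 8.24 FPKM and the shorter at 3.79 to 6.28 FPKM over the 6 libraries. Summed, they stood at 11.5, 10.3 and 12.03 FPKM in control and at 12.9, 12.8 and 12.5 FPKM in PAMK, a level like that of Snhg6 and Snhg18. All 3 PAMK libraries were above all 3 controls, a pattern shown by 7.63% of lncRNA gene sums. These rows were singled out after their values were seen, and no test is given.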
